A study of Mus musculus with 35 samples.

Results

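Interferon-stimulated genes were followed in RNA sequencing of liver macrophages sorted from mice with and without diet-induced fatty liver disease. The set held 49 gene symbols chosen by name, and a member was tested when it exceeded a CPM (counts scaled to the library total) of 1 in at least 5 of the 35 samples. This left 48 of the 49 members among 13421 of 54735 gene symbols. The member that failed, *Tgtp1*, lay at 0.0811 to 1.1 CPM (mean 0.464 CPM), where 3 counts in a library give 0.198 to 0.259 CPM. All animals were male C57Bl/6J mice that started a standard diet (SD) or a western diet (WD, rich in fat and cholesterol, with sugars in the drinking water) at 5 weeks of age. Resident Kupffer cells (ResKCs, sorted as CLEC4F+TIM4+) came from mice fed SD for 12 weeks (n = 7), WD for 12 weeks (n = 5), SD for 24 weeks (n = 6) or WD for 24 weeks (n = 6). From WD-fed mice at 24 weeks there were also monocyte-derived Kupffer cells (moKCs, CLEC4F+TIM4-, n = 5) and CLEC4F- macrophages (CLEC4F- macs, CLEC4F-TIM4-, n = 6), and neither population was analysed here under SD. A label field of the 12-week WD samples names the standard diet, whereas their title and description name the western diet, which was followed. The study's methods count animals as replicates, whereas the labels do not tie single libraries to animals, and p-values measure the spread between these samples.

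Interferons signal through cell-surface receptors and JAK kinases to STAT transcription factors. Type I and type III interferons act through a complex that contains STAT2 and IRF9 and binds interferon-stimulated response elements (ISREs), whereas interferon-gamma acts mainly on gamma-activated sites (GAS). The induced genes include RNA-binding IFIT proteins, the RNA-sensing OAS enzymes, Mx GTPases, the ubiquitin-like modifier ISG15, DNA-binding HIN-200 proteins, and the guanylate-binding proteins (GBPs) and immunity-related GTPases (IRGs) that act on the membranes around intracellular microbes. In Kupffer cells, which meet gut-derived microbial products in the portal blood, many of these genes have a basal level without infection.

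Several members sit in gene clusters (mm10, GENCODE M21). The 4 IFIT genes lie on chromosome 19, the 4 GBPs on chromosome 3, the 5 OAS family genes on chromosome 5, the 4 HIN-200 genes on chromosome 1, and 6 of the 7 IRGs on chromosome 11. RefSeq promoter windows of the GRCm38.p6 build, 250 bases before to 50 bases after a start site, were found for 38 of the 49 members. The ISRE core, spelled GAAANNGAAA and searched on both strands, was present in 26 of these 38 members (68.4%) and in 3.99% of 27025 genes with a window. The GAS core, spelled TTCNNNGAA, was present in 9 of the 38 members (23.7%) and in 9.55% of the genes with a window. Of the members with a window, 4 of 4 GBPs and 5 of 6 IRGs held the ISRE core, and 6 of these 10 genes held both cores. In the other families 2 members held both. The matches may overlap each other, a match describes the letters only, and windows without one say nothing about the factor.

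The following stretches were chosen because the populations differed in the levels of their genes or because they show how alike the family copies are. They are written on the strand of the gene with the motif matches in capitals. *Isg15* (chr4:156200860-156200911, minus strand) carries 3 overlapping ISRE cores, and *Bst2* (chr8:71537572-71537623, minus strand), which encodes the virion-tethering protein tetherin, carries a GAS core that overlaps its ISRE cores.
Isg15: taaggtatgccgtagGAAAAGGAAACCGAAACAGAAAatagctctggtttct
Bst2: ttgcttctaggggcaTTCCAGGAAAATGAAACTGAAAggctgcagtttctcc
Gbp7: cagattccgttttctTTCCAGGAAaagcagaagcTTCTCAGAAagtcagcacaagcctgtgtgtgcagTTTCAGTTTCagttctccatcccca
The *Gbp7* stretch (chr3:142530215-142530307, plus strand) has 2 GAS cores and, nearer the gene, an ISRE core on the opposite strand. The corresponding stretches of *Ifit3* (chr19:34583358-34583431) and *Ifit3b* (chr19:34607754-34607827), both on the plus strand, were identical over 74 of 74 bases.
Ifit3: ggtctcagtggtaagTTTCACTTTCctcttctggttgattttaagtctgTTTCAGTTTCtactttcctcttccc
Ifit3b: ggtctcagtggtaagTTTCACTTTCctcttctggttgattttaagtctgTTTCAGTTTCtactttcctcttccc
Of the IRGs, *Igtp* (chr11:58199496-58199546) and *Irgm2* (chr11:58214887-58214937), on the plus strand, shared 49 of 51 bases. *Tgtp1* (chr11:48992299-48992349) and *Tgtp2* (chr11:49064258-49064308), on the minus strand, shared 39 of 51 bases. Bases were compared position by position without gaps, so an inserted base, as after the matches in this pair, lowers the number. In these 4 stretches a GAS core stood next to an ISRE core.
Igtp: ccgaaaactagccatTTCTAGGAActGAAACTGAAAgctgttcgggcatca
Irgm2: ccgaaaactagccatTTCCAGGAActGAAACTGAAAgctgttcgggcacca
Tgtp1: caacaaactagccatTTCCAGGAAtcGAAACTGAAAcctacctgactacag
Tgtp2: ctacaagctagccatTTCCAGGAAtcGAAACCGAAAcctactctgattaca
How reads that match more than one copy were counted is not given in the sources used here, so *Ifit3* against *Ifit3b* and *Tgtp1* against *Tgtp2* are uncertain. The same holds for other near-identical relatives (*Oas1a*, the HIN-200, GBP and *Slfn* genes). Overlapping genes, such as *Irf7* with *Phrf1*, *Rtp4* with *Masp1* and *Dhx58* with *Dhx58os* on opposite strands, and *Igtp* with *Irgm2* on the same strand, are uncertain too because the strand setting of the counting is not given.

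Libraries held 11568590 to 15163845 counts. The summed level of 6 resident Kupffer cell markers (*Clec4f*, *Timd4*, *Vsig4*, *Cd5l*, *Marco*, *Cd163*) was 26550 to 36940 CPM in the 24 ResKC samples, 17030 to 24590 CPM in the moKCs and 1295 to 12200 CPM in the CLEC4F- macs. The highest of the CLEC4F- macs was replicate 4, which also had the lowest sum of 5 monocyte markers in its group (363 CPM in a range of 363 to 1439 CPM). Monocyte markers summed to at most 287 CPM in every other group. Counts, scores and the folds of some members are therefore given with and without this library where they rest on CLEC4F- macs. The count headers carry alignment names of 2 styles, shared by 22 and 13 samples, and ResKCs on WD at 12 weeks and on SD at 24 weeks had the first style only. In bulk samples, fewer cells of a type and less RNA per cell cannot be told apart.

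Basal levels spanned a wide range. Per kilobase of exon, *Ly6e*, a membrane protein that modulates virus entry, had the highest mean level over the 35 samples (895 CPM per kb), followed by *Bst2* (275 CPM per kb) and *Irf7* (242 CPM per kb). IRF7 is the transcription factor that amplifies type I interferon production. The transcripts of *Mx1* (4.07 CPM per kb) and *Mx2* (1.69 CPM per kb) were the lowest of the tested members. *Irf9*, the DNA-binding subunit of the complex at ISREs, varied little, with 86.1 to 134 CPM in all samples, and passed in no comparison.

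A score, the mean over the 48 members of log2 CPM centred on each gene's mean, placed the moKCs above the other groups. The 5 moKC samples scored 0.29, 0.07, 0.34, 0.06 and 0.36 (0.23 ± 0.15, SD). ResKCs scored 0.04 ± 0.12 (SD, n = 7) on SD at 12 weeks, 0.01 ± 0.14 (n = 5) on WD at 12 weeks, -0.01 ± 0.12 (n = 6) on WD at 24 weeks and -0.12 ± 0.20 (n = 6) on SD at 24 weeks. The CLEC4F- macs scored -0.24, -0.09, -0.35, 0.15, -0.21 and 0.05 in replicates 1 to 6 (-0.12 ± 0.19, or -0.17 ± 0.15 without replicate 4). In this order of means, neighbours lay within the pooled SD of 0.16 of each other, other than the moKCs and the group next to them. Samples of the moKCs overlapped those of every other group. The 24-week SD ResKCs fell apart into replicates 1 to 3, at 0.12, 0.06 and 0.03, and replicates 4 to 6, each at -0.30.

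**Figure D1:**
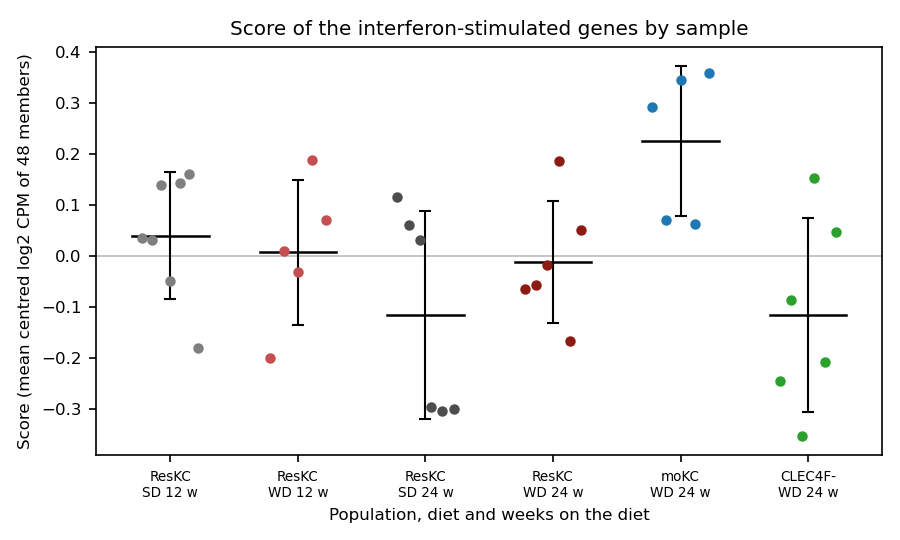
Score of the 48 tested members (mean of log2 CPM centred on each gene's mean) for each of the 35 samples, grouped by population, diet and weeks, with group means and SD. The 5 moKC samples lie between 0.06 and 0.36, and 3 of the 6 ResKC samples on SD at 24 weeks lie at -0.30.

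**Figure D2:**
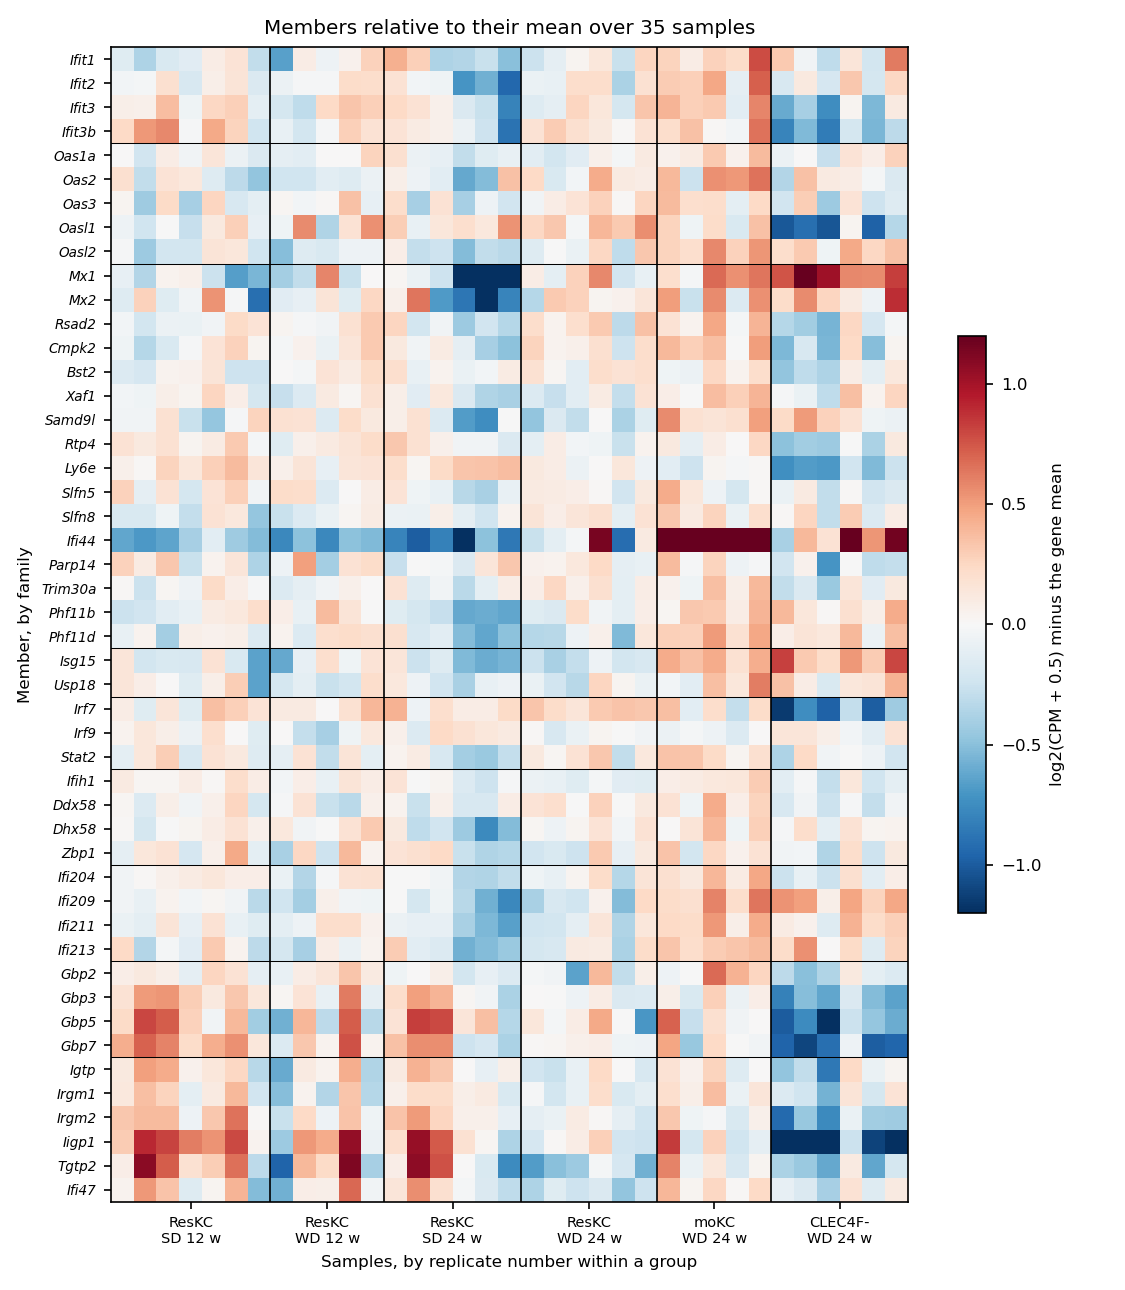
Each of the 48 tested members (vertical axis, ordered by family) in each of the 35 samples (horizontal axis, by replicate within a group) as log2 CPM minus the gene's mean, with red above and blue below the mean. *Ifi44* is dark red in all 5 moKC samples, and *Iigp1*, *Irf7* and *Gbp7* are blue in the CLEC4F- macs other than replicate 4, which is paler.

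Within the diseased liver, CLEC4F- macs had lower levels of several interferon-stimulated genes than moKCs, with the GBPs the clearest family. Against ResKCs, members differed in both directions. Between moKCs and CLEC4F- macs, 19 of the 48 members (39.6%) were higher in moKCs (edgeR adjusted p under 0.05), beside 9.34% of all genes tested, and 0 were lower, beside 7.09% of all genes. DESeq2 and limma-voom each called 19 members in this comparison. In either direction, 24 of 48 members had an unadjusted edgeR p under 0.05, beside 3647 of 13421 genes. The median log2 fold change of the members was 0.27, against 0.01 for all genes, and 43 of 48 members were above 0. The members higher in moKCs were 4 of 4 GBPs, 2 of 4 IFIT genes, 2 of 6 IRGs, 2 of 4 nucleic acid sensors, 1 of 5 OAS genes, 1 of 4 HIN-200 genes, 1 of 3 transcription factors and 6 of 16 Mx and other antiviral effectors. Without CLEC4F- replicate 4 there were 20, with *Bst2* added, and the background rose to 11.1% higher and 8.23% lower. Within each naming style the members' median was 0.38 and 0.22, with 14 and 2 members higher (29.2% and 4.17%, beside 8.64% and 1.58% of all genes) from 2 against 3 and 3 against 3 samples.

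*Iigp1*, an IRG induced by interferons, was at 197, 94.9, 133, 92.7 and 102 CPM in the moKCs and at 27.7, 41.9, 33.9, 91.5, 50.5 and 46.1 CPM in the CLEC4F- macs. All moKC samples were above all CLEC4F- macs, by little in the case of replicate 4. The log2 fold change was 1.35 (SE 0.27, edgeR adjusted p = 0.000378), and 1.63 without that library. *Gbp7* was at 161, 84.4, 137, 116 and 113 CPM in the moKCs and at 59.2, 53.9, 61.6, 111, 58.3 and 59.7 CPM in the CLEC4F- macs. Replicate 4 alone among the CLEC4F- macs reached the moKC range, and the log2 fold change was 0.86 (SE 0.19, edgeR adjusted p = 0.00112), or 1.06 without it. *Gbp5*, which acts in inflammasome assembly, ranged from 41.1 to 81.9 CPM in the moKCs and reached 41.6 CPM (median 31.0 CPM) in the CLEC4F- macs, so the ranges met at their ends (log2 fold change 0.86, SE 0.25, edgeR adjusted p = 0.0133).

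*Irf7* was at 1132, 809, 1021, 723 and 1027 CPM in the moKCs and at 397, 526, 450, 723, 445 and 657 CPM in the CLEC4F- macs. The groups met at the highest of the CLEC4F- macs and the lowest of the moKCs, and the log2 fold change was 0.82 (SE 0.13, edgeR adjusted p = 1.69e-05). *Ifit3b* was at 22.3 to 36.0 CPM in the moKCs and 12.5 to 19.7 CPM in the CLEC4F- macs, without overlap (log2 fold change 0.80, SE 0.16, edgeR adjusted p = 0.000428). *Ifit3* showed a log2 fold change of 0.64 (SE 0.17, edgeR adjusted p = 0.0065). *Ifit1*, which recognises RNA caps that lack a methyl group, was at 36.7, 32.5, 37.0, 35.7 and 53.0 CPM in the moKCs, and its log2 fold change of 0.23 did not pass (edgeR adjusted p = 0.455). The *Ly6e* difference was small but tight, at 0.44 (SE 0.09, edgeR adjusted p = 0.000426). *Gbp2* was 0.50 higher on the log2 scale (edgeR adjusted p = 0.00753).

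*Isg15* and *Mx1* did not share this pattern. *Isg15* was at 43.9, 41.1, 43.7, 36.4 and 43.5 CPM in the moKCs and 37.4 to 57.1 CPM in the CLEC4F- macs (log2 fold change -0.14, edgeR adjusted p = 0.598). *Mx1* was at 15.9, 13.6, 22.4, 20.4 and 21.9 CPM in the moKCs and 20.7 to 36.7 CPM in the CLEC4F- macs (-0.46, edgeR adjusted p = 0.306).

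Between ResKCs and CLEC4F- macs of WD-fed mice at 24 weeks, 12 members (25%) were higher in ResKCs, beside 17.0% of all genes, and 5 (10.4%) were lower, beside 16.1% of all genes. The CLEC4F- macs are the same samples as in the comparison above. The members' median log2 fold change was 0.06, against -0.02 for all genes. GBPs had a median of 0.61, with 3 of 4 higher, and the HIN-200 genes a median of -0.26, with 1 of 4 lower. With libraries scaled by total count alone, where the median of all genes was -0.14, the split was 8 higher (16.7%, beside 12.2% of all genes) and 12 lower (25%, beside 24.3%), and the score difference went from 0.10 to -0.02. The family medians of the OAS genes (0.11 to -0.02), the antiviral effectors (0.10 to -0.02), the IRGs (0.09 to -0.03) and the nucleic acid sensors (0.00 to -0.12) then changed sign. The medians of the GBPs (0.49) and of the HIN-200 genes (-0.37) kept theirs. Without CLEC4F- replicate 4, 16 members were higher and 4 lower (background 18% and 16.4%). *Trim30a*, *Cmpk2*, *Rtp4* and *Ifit3* were added and *Phf11d* was lost. Without CLEC4F- replicate 1, 9 members were higher, the lowest count when 1 sample was left out (share of all genes not computed). Within the naming styles the members' median was 0.14 and -0.01, with 15 members higher and 3 lower in the first (background 15.3% and 12.2%). In the second style *Irf7*, *Ly6e* and *Oasl1* were higher and *Isg15* lower, which is 6.25% and 2.08% of the members beside 8% and 5.18% of all genes.

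*Irf7* was at 975 to 1123 CPM (median 1103 CPM) in these ResKCs, above every CLEC4F- mac sample (highest 723 CPM), and its log2 fold change was 1.01 (SE 0.12, edgeR adjusted p = 7.14e-08). *Iigp1* ranged from 92.1 to 134 CPM (median 103 CPM) in the ResKCs, just above the highest CLEC4F- mac sample at 91.5 CPM (1.14, SE 0.26, edgeR adjusted p = 0.000696, and 1.42 without replicate 4). *Oasl1*, an OAS-like protein without synthetase activity, was at 101 to 152 CPM (median 128 CPM) in the ResKCs and at 50.4 to 105 CPM (median 53.6 CPM) in the CLEC4F- macs. Only CLEC4F- replicate 4 reached the ResKC range of *Oasl1*. The log2 fold change was 0.96 (SE 0.16, edgeR adjusted p = 2.17e-05), or 1.14 without that library. *Gbp7* lay at 111 to 123 CPM in the ResKCs, 0.80 higher on the log2 scale (SE 0.18, edgeR adjusted p = 0.000693), or 0.997 without replicate 4. *Ly6e* lay at 3159 to 3652 CPM against 1995 to 2842 CPM (0.54, SE 0.08, edgeR adjusted p = 4.50e-06).

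The members lower in ResKCs than in CLEC4F- macs were *Mx1*, *Isg15*, *Ifi209*, *Samd9l* and *Phf11d*. *Isg15* was at 24.4 to 30.7 CPM (median 27.0 CPM) in the ResKCs and 37.4 to 57.1 CPM (median 43.1 CPM) in the CLEC4F- macs. These ranges did not overlap, and the log2 fold change was -0.76 (SE 0.14, edgeR adjusted p = 5.74e-05). *Mx1* was at 11.7 to 20.8 CPM (median 13.8 CPM) in the ResKCs and 20.7 to 36.7 CPM (median 24.3 CPM) in the CLEC4F- macs. The *Mx1* ranges met at their ends (-0.79, SE 0.27, edgeR adjusted p = 0.0198). *Irf7* and *Isg15* thus differed in opposite directions between these populations. Markers of other cells moved with both comparisons against CLEC4F- macs. Beside the monocyte markers, 5 plasmacytoid dendritic cell markers summed to 3.47 to 19.9 CPM in CLEC4F- macs and at most 6.44 CPM elsewhere, and 4 conventional dendritic cell markers had medians of 45.3 CPM there, 10.3 CPM in the WD ResKCs at 24 weeks and 11.1 CPM in the moKCs. The sum of 6 T and NK cell markers was 4.14 to 15.4 CPM in CLEC4F- macs, 1.14 to 2.84 CPM in these ResKCs and 2.32 to 5.34 CPM in moKCs, and that of 5 macrophage markers 5569 to 9633, 11980 to 15110 and 9973 to 11980 CPM. CLEC4F- replicate 1 had the highest of these dendritic, T and NK cell sums, at 19.9, 161 and 15.4 CPM. The next CLEC4F- macs sample had 7.66, 61.4 and 8.69 CPM. The sum of 4 B cell markers was 163 CPM in replicate 1 and 61.3 CPM in the next sample. Its medians were 52.2 CPM in CLEC4F- macs, 19.7 CPM in these ResKCs and 40.2 CPM in moKCs. The part of these markers in the results was not tested.

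**Figure D3:**
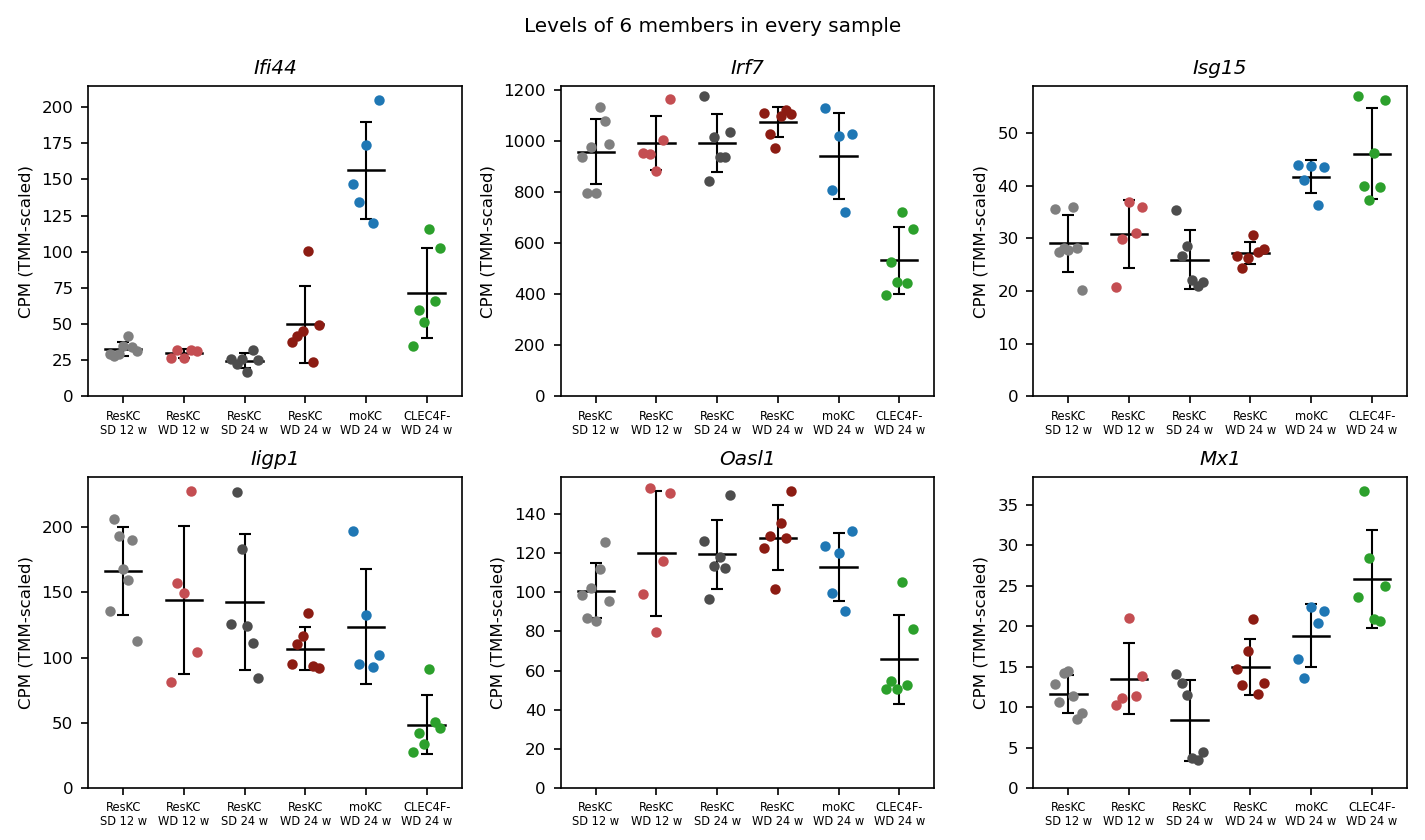
CPM of *Ifi44*, *Irf7*, *Isg15*, *Iigp1*, *Oasl1* and *Mx1* in every sample (points) with group means and SD, on linear axes from 0. *Irf7*, *Iigp1* and *Oasl1* are lowest in the CLEC4F- macs, *Isg15* is highest in the moKCs and CLEC4F- macs, and *Ifi44* stands highest in the moKCs.

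The 2 Kupffer cell populations differed in fewer members, all in 1 direction. Compared with moKCs, WD ResKCs at 24 weeks had 7 members lower (14.6%), beside 0.991% of all genes, and 0 higher, beside 2.00% of all genes. DESeq2 and limma-voom also called 7 members. In either direction, 17 of 48 members had an unadjusted edgeR p under 0.05, beside 2135 of 13421 genes. The median log2 fold change was -0.21, against -0.02 for all genes, and 5 of 48 members were above 0. These ResKC and moKC samples are those used above, so the 3 population comparisons are not independent. The median was -0.21 within either naming style, with 1 member lower in the first, *Ifi44* (2.08%, beside 0.354% of all genes), and 0 in the second (beside 0.0638%). The count of 7 fell to 3 without ResKC replicate 1 or 5, to 4 without ResKC replicate 2, to 3 without moKC replicate 3 and to 2 without moKC replicate 5.

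*Ifi44*, an antiviral protein associated with microtubules, was at 147, 135, 174, 120 and 205 CPM in the moKCs, whereas the ResKCs had 37.7, 41.9, 45.0, 101, 24.0 and 49.2 CPM in replicates 1 to 6. No sample overlapped, replicate 4 of the ResKCs came nearest, and the log2 fold change was -1.65 (SE 0.25, edgeR adjusted p = 9.10e-05). The CLEC4F- macs, at 34.7 to 116 CPM (median 62.9 CPM), overlapped these ResKCs, and *Ifi44* did not pass between the 2 groups. They lay below all moKCs (moKCs over CLEC4F- macs 1.12, SE 0.25, edgeR adjusted p = 0.00143, and 1.31 without CLEC4F- replicate 4). The *Isg15* values given above did not overlap between ResKCs and moKCs either (-0.62, SE 0.15, edgeR adjusted p = 0.0138).

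*Samd9l*, an inhibitor of virus replication and cell growth, was at 155, 119, 116, 119 and 147 CPM in the moKCs and at 75.2 to 105 CPM (median 88.7 CPM) in the ResKCs. The groups did not overlap (-0.57, SE 0.14, edgeR adjusted p = 0.0212). *Ifi209*, a HIN-200 gene, was at 135, 132, 176, 134 and 181 CPM in the moKCs and at 80.6 to 136 CPM (median 99.4 CPM) in the ResKCs (-0.54, SE 0.13, edgeR adjusted p = 0.0151). 1 ResKC sample reached the moKC range. *Phf11d* (-0.51, edgeR adjusted p = 0.0197) and the HIN-200 gene *Ifi211* (-0.41, edgeR adjusted p = 0.0468) were the others named by size of change. *Ifih1*, which encodes the double-stranded RNA sensor MDA5, was the seventh gene (-0.25, edgeR adjusted p = 0.0416). Neither *Irf7* (0.19, edgeR adjusted p = 0.512) nor *Stat2* (-0.14, edgeR adjusted p = 0.627) nor *Iigp1* (-0.21, edgeR adjusted p = 0.777) passed between the Kupffer cell populations.

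**Figure D4:**
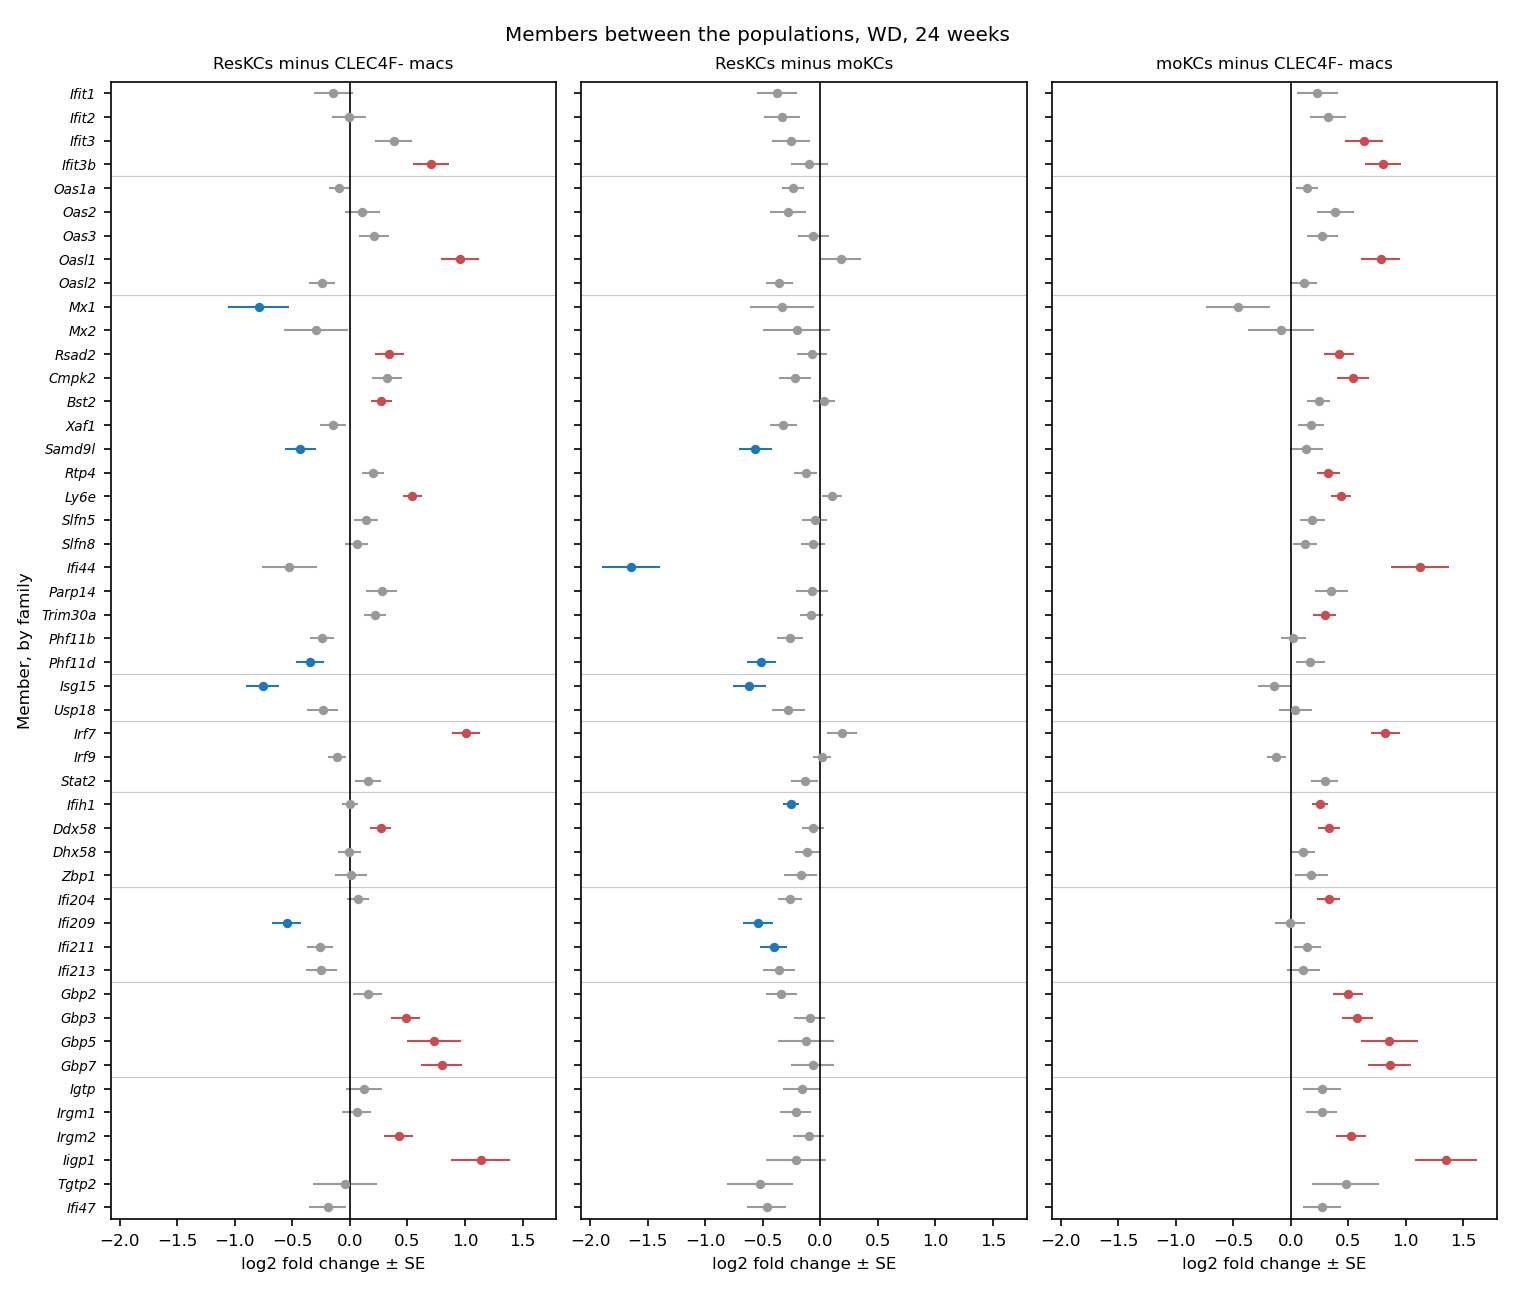
Log2 fold change ± SE of each of the 48 tested members between populations of WD-fed mice at 24 weeks, in 3 panels, with members called higher in red, lower in blue and others in grey. All 4 GBPs are red between moKCs and CLEC4F- macs, *Irf7* and *Isg15* point in opposite directions between ResKCs and CLEC4F- macs, and *Ifi44* lies at -1.65 between ResKCs and moKCs.

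The effect of the diet on ResKCs was small. At 12 weeks, 0 of 48 members passed in edgeR, DESeq2 or limma-voom, beside 0.0373% of all genes in either direction. An unadjusted edgeR p under 0.05 was reached by 1172 of 13421 genes and by 1 member. That gene was *Irgm1*, an IRG that regulates autophagy, at 106 to 190 CPM (median 119 CPM) on WD and 128 to 197 CPM (median 165 CPM) on SD. The ranges overlapped (-0.28, edgeR adjusted p = 0.556). *Irgm2* was next by p (-0.25, edgeR adjusted p = 0.607).

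At 24 weeks, 4 members (8.33%) were higher on WD, beside 4.84% of all genes, and 0 were lower, beside 3.87% of all genes. DESeq2 and limma-voom also called 4 members. In either direction, 13 of 48 members had an unadjusted edgeR p under 0.05, beside 3331 of 13421 genes. The median log2 fold change was 0.10, against 0.00 for all genes. The count was 2 without any one of SD replicates 4, 5 and 6 or WD replicates 3, 4 and 6, and 6 without WD replicate 5.

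*Ifi44* was at 26.2, 22.7, 25.8, 16.9, 32.3 and 24.9 CPM on SD, below 5 of the 6 WD samples given above. Its log2 fold change was 1.01 (SE 0.25, edgeR adjusted p = 0.00961), and without WD replicate 4, at 101 CPM, the adjusted p was 0.0522. *Dhx58*, which encodes the RNA sensor LGP2, was at 102, 76.7, 80.8, 69.6, 55.3 and 65.7 CPM on SD and 96.3, 90.6, 96.7, 106, 92.6 and 107 CPM on WD. SD replicate 1 alone reached the WD range (0.39, SE 0.10, edgeR adjusted p = 0.0143). *Phf11b*, a PHD-finger gene, was at 37.2 to 51.9 CPM (median 42.7 CPM) on SD and 51.1 to 67.3 CPM (median 54.6 CPM) on WD, with 5 of 6 WD samples above all SD samples (0.38, SE 0.11, edgeR adjusted p = 0.0226).

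*Mx1* was at 11.5 to 14.0 CPM in SD replicates 1 to 3, at 3.67, 3.39 and 4.47 CPM in SD replicates 4 to 6, and at 14.7, 12.7, 16.9, 20.8, 11.7 and 12.9 CPM on WD. SD replicates 4 to 6 were far below the rest, SD replicates 1 and 2 lay among the WD samples and SD replicate 3 was just below them (0.84, SE 0.27, edgeR adjusted p = 0.0484). The same 3 SD replicates had the lowest scores. The summed level of 10 immediate-early and heat-shock genes was 1863, 4113, 7378, 7484, 10180 and 6090 CPM in SD replicates 1 to 6 and 854 to 3843 CPM (median 1607 CPM) on WD. With the mean log2 CPM of these 10 genes as a covariate, 0 members passed at 24 weeks, beside 1.88% of all genes higher and 1.67% lower. The SD samples at 24 weeks shared 1 naming style and the WD samples were split 3 and 3. Within the first style 1 member was higher, *Ifi44* (0.75, edgeR adjusted p = 0.0129), which is 2.08% of the members beside 2.39% of all genes. With the style as a covariate 2 members were higher (4.17%, beside 3.32%) and 1 lower (2.08%, beside 3.37%).

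The GBPs and IRGs had negative medians. At 24 weeks the median log2 fold change was -0.32 over the 6 IRGs and -0.17 over the 4 GBPs, against 0.21 for the IFIT genes, 0.23 for the OAS genes and 0.18 for the HIN-200 genes, and no GBP or IRG passed. *Tgtp2* was at 27.6, 55.4, 44.5, 26.2, 22.9 and 15.2 CPM on SD and 16.2 to 25.7 CPM (median 18.7 CPM) on WD. 4 of the 6 SD samples were above every WD sample, but the difference of -0.69 did not pass (edgeR adjusted p = 0.114). *Tgtp2* was chosen here after its values were seen. *Stat2*, a subunit of the complex at ISREs, was 0.28 higher on WD (edgeR adjusted p = 0.114). *Ifit1* (0.06, edgeR adjusted p = 0.868), *Isg15* (0.07, edgeR adjusted p = 0.806) and *Irf7* (0.11, edgeR adjusted p = 0.61) did not pass.

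**Figure D5:**
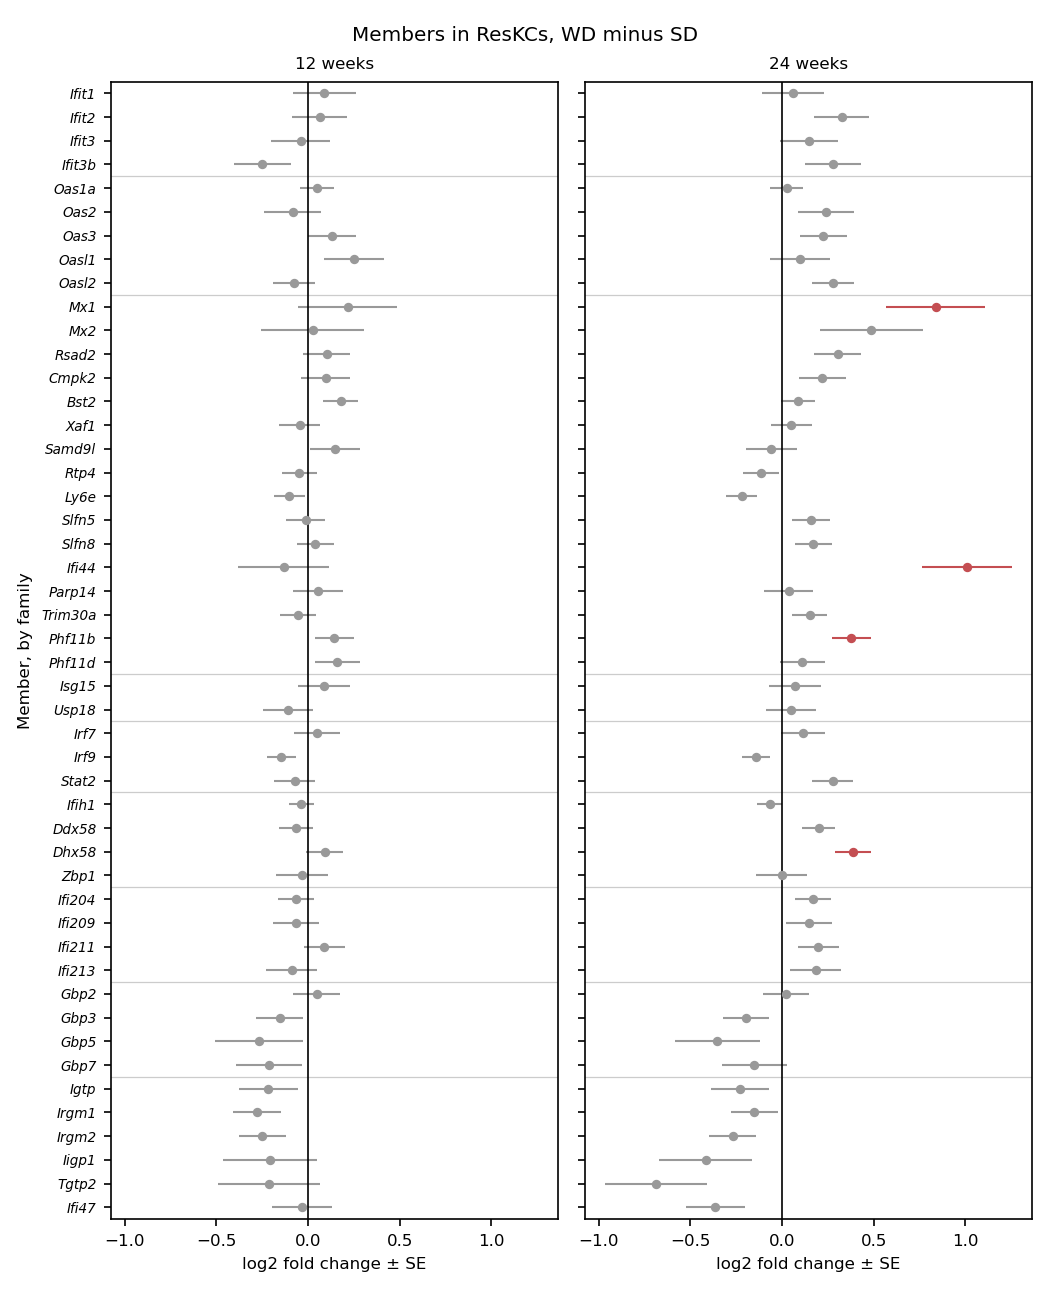
Log2 fold change ± SE of each of the 48 tested members in ResKCs, WD over SD, at 12 weeks (left) and 24 weeks (right), with members called higher in red and others in grey. *Ifi44*, *Mx1*, *Dhx58* and *Phf11b* are red at 24 weeks, where the IRGs at the bottom lie below 0 without passing.

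The change of the diet effect between the times was tested as an interaction. None of the 48 members passed in edgeR (0, beside 0.283% of all genes in either direction). DESeq2 called 1, *Ifi44*, and limma-voom 0. At an unadjusted edgeR p under 0.05 there were 5 members, beside 1886 of 13421 genes. The estimate for *Ifi44* was 1.14 (SE 0.35, edgeR adjusted p = 0.13) and that for *Ifit3b* 0.53 (edgeR adjusted p = 0.259). From 12 to 24 weeks on SD, 0 members passed in any of the 3 tools, beside 0.00% of all genes. At an unadjusted edgeR p under 0.05 there were 8, beside 1208 of 13421 genes. The members' median was -0.15, and 8 of 48 were above 0. *Dhx58* (-0.36, edgeR adjusted p = 0.228) and *Phf11b* (-0.37, edgeR adjusted p = 0.253) had the smallest p. On WD, 0 members passed in any of the 3 tools, beside 3.26% of all genes in either direction. At an unadjusted edgeR p under 0.05 there were 6, beside 2527 of 13421 genes. *Ifi44* (0.74, edgeR adjusted p = 0.1) and *Samd9l* (-0.35, edgeR adjusted p = 0.17) led that list. The diet and time comparisons share samples.

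Most pairs of members were positively correlated between replicates of a group. Over deviations from group means in 35 samples, 1128 pairs of members had a median correlation of 0.39, and 95.7% of pairs were above 0. The points share libraries and depth, so these values describe the samples and carry no test. Correlations over pairs of all genes were not computed, so there is no background for them. The naming styles were not removed from the deviations. The 45 pairs within the 10 GBPs and IRGs had a median of 0.77, the 703 pairs of other members 0.42 and the 380 mixed pairs 0.31. Within single families the median was 0.81 for the IRGs, 0.72 for the IFIT genes, 0.72 for the HIN-200 genes, 0.60 for the GBPs and 0.45 for the OAS genes. The GBPs and IRGs were joined into 1 group after these values were seen. *Tgtp2* and *Ifi47*, whose genes lie in the same cluster, reached 0.90, and *Ifit2* and *Ifit3* 0.88. *Ifit2* followed the mean of the other members most closely (0.87) and *Irf9* least (0.07).

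Scored apart, the 10 GBPs and IRGs were at -0.50 ± 0.29 (SD, n = 6) in the CLEC4F- macs, where the other 38 members were at -0.01 ± 0.17. Without replicate 4 these values were -0.60 ± 0.17 and -0.06 ± 0.16. In ResKCs on SD at 12 weeks the GBPs and IRGs were at 0.27 ± 0.26 (n = 7) and the other members at -0.02 ± 0.11. At 24 weeks they were at 0.14 ± 0.32 on SD and -0.11 ± 0.14 on WD (n = 6 each), and the others at -0.18 ± 0.20 and 0.01 ± 0.13. In moKCs the GBPs and IRGs were at 0.11 ± 0.21 and the others at 0.26 ± 0.15 (n = 5). The moKCs had the highest mean of the 6 groups over the other 38 members, whereas SD ResKCs at 12 weeks had the highest mean over the GBPs and IRGs.

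In the main fit of all 35 samples, upstream pathway genes differed from CLEC4F- macs at shares near those of all genes or lower. Of 39 listed interferons, receptors, kinases, STATs, regulators and chemokines, 29 passed the filter. The interferons themselves failed the filter. *Ifnb1* reached 1.49 CPM and *Ifng* 0.555 CPM in single samples, above the 0.198 to 0.259 CPM that 3 counts give. Their means over the 35 samples were 0.118 and 0.0796 CPM. Between ResKCs and CLEC4F- macs, 5 of the 29 were higher (17.2%, beside 17.0% of all genes) and 3 lower (10.3%, beside 16.1%). Without CLEC4F- replicate 4 these were 5 and 5 (17.2% each, beside 18% and 16.4%). With libraries scaled by total count alone, 3 were higher (10.3%, beside 12.2%) and 9 lower (31%, beside 24.3%). *Ifnar1*, a chain of the type I interferon receptor, had means of 124 CPM in the ResKCs and 192 CPM in the CLEC4F- macs, without overlap (-0.63, edgeR adjusted p = 2.68e-06). *Ifngr1*, a chain of the interferon-gamma receptor, was 0.40 higher in the ResKCs (edgeR adjusted p = 0.000126), as was *Tlr3*, an endosomal sensor of double-stranded RNA (0.61, edgeR adjusted p = 8.37e-05). *Ptpn2*, a phosphatase of JAK and STAT proteins, was lower (-0.41, edgeR adjusted p = 0.000581).

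Between moKCs and CLEC4F- macs, 3 of the 29 were higher (10.3%, beside 9.34% of all genes) and 2 lower (6.9%, beside 7.09%). Without CLEC4F- replicate 4, 5 were higher (17.2%, beside 11.1%) and 2 lower (6.9%, beside 8.23%). The higher genes were *Tlr3* (0.51, edgeR adjusted p = 0.00257), *Ifngr1* (0.29, edgeR adjusted p = 0.0115) and the transcription factor *Irf1* (0.62, edgeR adjusted p = 0.0174). *Ifnar1* (-0.49, edgeR adjusted p = 0.000516) and *Irf5* (-0.20, edgeR adjusted p = 0.0315) were lower. Both Kupffer cell populations thus had less *Ifnar1* and more *Ifngr1* transcript than the CLEC4F- macs. Between ResKCs and moKCs, for the diet at 12 weeks, for time on SD and for the interaction, 0 of the 29 passed in edgeR. At an unadjusted edgeR p under 0.05 there were 4, 6, 3 and 3, beside 2135, 1172, 1208 and 1886 of 13421 genes. DESeq2 and limma-voom called 0 as well, except that DESeq2 called *Irf5* for the interaction. At 24 weeks on WD, 2 of the 29 were lower than on SD (6.9%, beside 3.87% of all genes) and 0 higher (beside 4.84%). These were *Irf1* (-0.65, edgeR adjusted p = 0.0199) and the feedback inhibitor *Socs3* (-1.88, edgeR adjusted p = 0.0195). Neither passed with the immediate-early and heat-shock covariate or with the naming style as a covariate. Within the first style 1 was lower, *Socs3* (3.45%, beside 1.55%). From 12 to 24 weeks on WD, 1 of the 29 was higher (3.45%, beside 1.53% of all genes). This was *Ticam1*, the adaptor of TLR3 (0.80, edgeR adjusted p = 0.0231). *Ticam1* did not pass with the naming style as a covariate or within the first style, the only style of the 12-week WD samples.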

How the data were processed

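Liver macrophages of the 35 samples were profiled by bulk RNA-seq. The authors deposited one table of raw counts per gene symbol for each sample. The submitters' processing notes name FastQC 0.11.9, HISAT2 2.2.0, SAMtools 1.10, featureCounts 2.0.0 and the mm10 build. Strand setting and treatment of reads with several matches are not given in the sources used here.

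Samples were grouped by their titles. For the 12-week WD group the diet field disagreed with title and description, which were followed. The filter of 1 CPM in 5 or more samples left 13421 genes. All 6 groups entered a single fit with edgeR 4.0.16 (TMM scaling, quasi-likelihood test, R 4.3.3), from which the 7 contrasts and the diet-by-time interaction were taken. P-values were adjusted over all genes by the Benjamini-Hochberg method, with a threshold of 0.05. Levels are TMM-scaled CPM, and the score used a prior count of 2. Depth was 11568590 to 15163845 counts, so 3 counts correspond to 0.198 to 0.259 CPM, which covers counting error only.

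Members, families, pathway and marker lists were chosen with earlier results of these data known. The text names 8 members (*Ifit1*, *Ifit3*, *Isg15*, *Irf7*, *Irf9*, *Stat2*, *Gbp2*, *Iigp1*), in each comparison the 6 called members with the largest log2 fold change and the 3 with the smallest p, the 2 highest and 2 lowest members by mean CPM, the 2 smallest p where none was called, and up to 4 called pathway genes. *Tgtp2*, *Ifih1*, *Bst2*, *Ifi47* and *Ifit2*, among others outside this rule, were chosen after their values were seen.

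Alternatives were DESeq2 1.42.0, limma-voom (limma 3.58.1), library size alone, no filter, the compared groups alone, a replicate block, covariates for stress genes or library naming, an absolute log2 fold change over 1, and leaving out each replicate. Fits within a naming style, and the listing of single members without CLEC4F- replicate 4, were added after seeing the data. The gene-wise fits were tested on simulated data. The result for 1 pathway gene is not reported here.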

Additional observations from a re-analysis of the deposited data

Results flagged for a closer look

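In 150 sets of values (the score and 24 named members in each of the 6 groups, of 5 to 7 samples), 5 values stood far from the others of their set. Chance alone gives about 1 in 20 sets, which is more than were found. *Gbp7* was at 111 CPM in replicate 4 of the CLEC4F- macs, against 61.6 CPM in the next sample. *Iigp1* was at 91.5 CPM in the same library, against 50.5 CPM in the next. That library also had the highest Kupffer cell marker sum of its group. *Ifi44* was at 101 CPM in replicate 4 of the WD ResKCs at 24 weeks, against 49.2 CPM in the next sample. *Ifit1* was at 53.0 CPM in replicate 5 of the moKCs, against 37.0 CPM in the next. *Ifi209* was lowest, at 92.2 CPM, in replicate 7 of the SD ResKCs at 12 weeks, where the nearest sample had 109 CPM.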

How the results depend on the processing

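The 12 higher and 5 lower members between ResKCs and CLEC4F- macs became 8 and 12 with library size alone. Within naming style 1, 3 were lower, and within style 2, 3 were higher and 1 lower. Beyond an absolute log2 fold change of 1, 2 were higher and 0 lower. Shares of all genes for library size and the styles are given above, and none was computed beyond a log2 fold change of 1. The 7 members lower in ResKCs than in moKCs became 4 with the compared groups alone (8.33%, beside 0.766% of all genes). They became 1 and 0 within naming styles 1 and 2, and 1 beyond a log2 fold change of 1. The 19 members higher in moKCs than in CLEC4F- macs became 2 within style 2 (4.17%, beside 1.58% of all genes) and 2 beyond a log2 fold change of 1. The 4 members higher on WD at 24 weeks became 2 with the compared groups alone (4.17%, beside 4.35% of all genes). With the immediate-early and heat-shock covariate there were 0 (beside 1.88%). With the naming style as covariate there were 2 (4.17%, beside 3.32%) and 1 lower (2.08%, beside 3.37%). Within style 1 there was 1 (2.08%, beside 2.39%), and 1 beyond a log2 fold change of 1. DESeq2 called 1 interaction (2.08%, beside 0.675% of all genes higher) where edgeR called 0. Fits within a style used fewer samples (2 or 3 in the smaller group), and the cause of the other changes was not tested. For fits that left out 1 sample, shares of all genes were not computed, other than those without CLEC4F- replicate 4 given above. Leaving out single samples gave 14 to 20 members for moKCs over CLEC4F- macs, 9 to 16 higher and 4 to 7 lower for ResKCs against CLEC4F- macs, 2 to 8 lower for ResKCs against moKCs, 2 to 6 for WD at 24 weeks, 0 to 1 lower for time on SD, 0 to 1 higher for time on WD, and 0 elsewhere. Score differences then ranged from 0.29 to 0.39, 0.06 to 0.16, -0.28 to -0.20 and 0.06 to 0.15 in these first 4 comparisons, from -0.08 to 0.02 for WD at 12 weeks, -0.20 to -0.12 for time on SD, -0.07 to 0.03 for time on WD and 0.08 to 0.18 for the interaction. Replicate numbers were not taken to pair the samples, since no comparison had every pair of same-numbered deviations correlated over 0.1 (means -0.112 to 0.118), which does not exclude a pairing. With the replicate block 4 members were higher on WD at 24 weeks (8.33%, beside 5.6% of all genes). Between ResKCs and CLEC4F- macs 12 were higher (25%, beside 17.3%) and 5 lower (10.4%, beside 16.2%). Between ResKCs and moKCs 5 were lower (10.4%, beside 0.924%), between moKCs and CLEC4F- macs 19 higher (39.6%, beside 9.31%), and 0 elsewhere. Outside any fit, deviations correlated best with their own number in 5 of 6 cases for ResKCs against CLEC4F- macs. The other comparisons had 2 of 5 cases or fewer. A pairing of ResKCs and CLEC4F- macs by number is therefore possible, and the main fit treated them as unpaired. The moKCs had 2 libraries of the first style and 3 of the second, against 3 and 3 in those groups. Equal numbers therefore need not match animals for moKCs. The block was shared by all 6 groups, so it does not model such pairs.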
